A study of Rattus norvegicus with 10 samples.

Results

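The genes of the ATP-sensitive potassium (KATP) channel and of the first enzyme of glucose use were examined in the arcuate nucleus of the hypothalamus (ARC) of Wistar rat dams at parturition. The rows of the deposited gene table that carry the names *Kcnj11*, *Abcc8*, *Kcnj8*, *Abcc9*, *Hk1* and *Hk2* were taken, and 6 of 6 names were found among 12828 genes, 12383 of them protein-coding. *Kcnj11* was chosen by its high rank in the comparison of the diets deposited by the authors, whose values were not used here, and the other genes were listed beside it by name. The libraries came from 10 first-time pregnant dams, 5 fed a 5X-FA diet with folic acid and 5 fed a 5X-MTHF diet with the calcium salt of [6*S*]-5-methyltetrahydrofolic acid, each at 5 times the recommended folate content. Both groups received their diet through pregnancy only, were fasted in the daytime and were terminated at birth, and no dam on a 1X diet is among the libraries. The ARC was cut free hand from frozen coronal slices, so that the samples are bulk tissue, and poly-A selected RNA was sequenced.

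The only value used for each gene is the authors' average log2 CPM (a gene's reads relative to the size of the library, on a log2 scale) over all libraries. CPM is not divided by transcript length, so it ranks genes by the reads they received and not by their number of transcripts. Another 10 columns of values per library could not be matched to single dams or to a diet. Differences between 5X-FA and 5X-MTHF dams, the spread between dams and the depth of each library were therefore not obtained, and no value below carries an SD or a test. All of them are single averages across both diets. In bulk tissue, fewer cells of a type and less RNA per cell cannot be told apart.

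The KATP channel joins cell metabolism to membrane potential. It is built from pore-forming subunits of the inward rectifier family, Kir6.2 (*Kcnj11*) or Kir6.1 (*Kcnj8*), and regulatory sulfonylurea receptors, SUR1 (*Abcc8*) or SUR2 (*Abcc9*). ATP closes the pore, while ADP acting through the sulfonylurea receptor opens it, so that a fed cell depolarizes. The pair of Kir6.2 and SUR1 is the channel of the pancreatic beta cell and of many neurons, and in the ARC it is known from glucose-responsive neurons. The pair of Kir6.1 and SUR2 is known from vascular smooth muscle and pericytes. Hexokinases add a phosphate to glucose once it has entered the cell. *Hk1* is the main hexokinase of brain, and *Hk2* is the form that insulin regulates in muscle and fat.

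The 6 genes, taken by name from rows that hold an average, covered a wide range of read levels. *Hk1* had an average of 8.42 log2 CPM (342 CPM) and stood at rank 370 of the table, with 97.1% of all genes below it. *Kcnj8* had the lowest average, 2.26 log2 CPM (4.80 CPM), with 8.59% of genes below it. The other 4 genes lay within 0.33 log2 units of each other. Against a median of 4.94 log2 CPM (30.7 CPM) over all genes, 1 of the 6 genes was above and 5 were below. The median of the 6 genes was 4.50 log2 CPM.

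**Figure D1:**
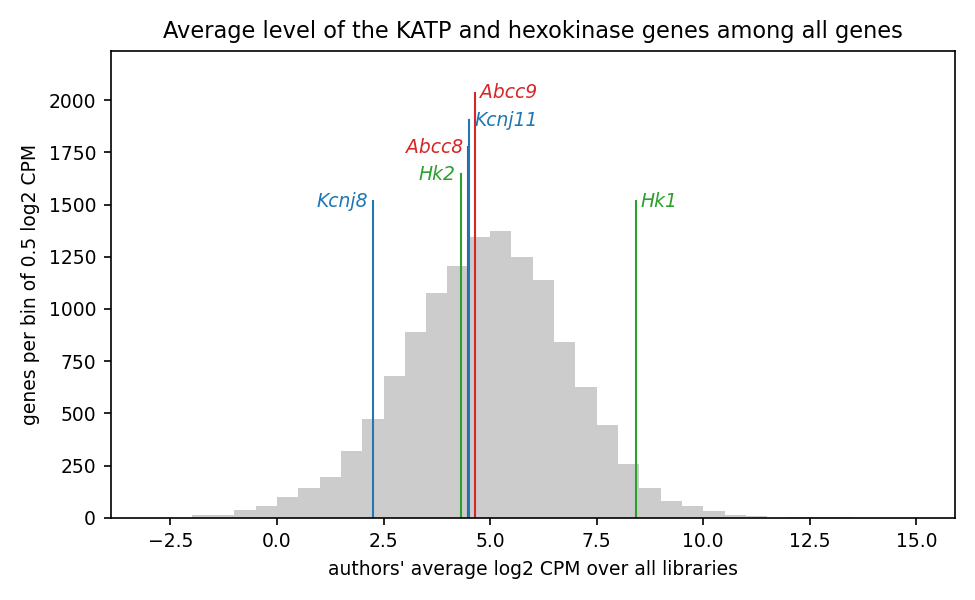
Authors' average log2 CPM of each of the 6 genes (vertical lines; blue, pore subunits; red, sulfonylurea receptors; green, hexokinases) over a histogram of all 12828 genes (grey, number of genes per bin of 0.5 log2 CPM). *Hk1* lies in the upper tail at 8.42, *Kcnj8* in the lower part at 2.26 and the other 4 genes between 4.31 and 4.64, a little below the middle of the distribution; line heights carry no value.

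Among the pore subunits, *Kcnj11* (Kir6.2, ENSRNOG00000021128) is a short gene of 3034 bp on chromosome 1 of Rnor_6.0, from 102103094 to 102106127. Its average was 4.51 log2 CPM (22.9 CPM), above 40.9% of all genes. *Kcnj8* (Kir6.1, ENSRNOG00000013463) lies on chromosome 4 from 176782498 to 176789304. Its average of 4.80 CPM was the lowest of the 6 genes and the one for which counting error weighs most. The size of that error was not estimated.

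Among the sulfonylurea receptors, *Abcc8* (SUR1, ENSRNOG00000021130) spans chromosome 1 from 102110708 to 102191287 and had an average of 4.48 log2 CPM (22.3 CPM), above 40.2% of all genes. *Abcc9* (SUR2, ENSRNOG00000036960) spans chromosome 4 from 176805431 to 176922424 and had an average of 4.64 log2 CPM (25.0 CPM), above 43.8% of all genes. The gene-level counts do not separate the splice forms of SUR2. Both receptors were taken from rows that hold an average, so the presence of their reads is not a result.

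In each pair named above, the pore subunit gene and the receptor gene are neighbours. *Kcnj11* and *Abcc8* are 4580 bp apart on chromosome 1, and *Kcnj8* and *Abcc9* are 16126 bp apart on chromosome 4, with 0 other genes of the table between them in either pair. No other row of the table overlapped any of these 4 genes, *Hk1* or *Hk2*. The averages of *Kcnj11* and *Abcc8* differed by -0.03 log2 CPM (*Abcc8* minus *Kcnj11*). For the other pair the difference was 2.38 log2 CPM (*Abcc9* minus *Kcnj8*). As neither difference is corrected for transcript length, they describe reads and give no ratio of subunits.

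Of the hexokinases, *Hk1* (ENSRNOG00000046891) lies on chromosome 20 from 31912262 to 31956649. *Hk2* (ENSRNOG00000006116) lies on chromosome 4 from 113559427 to 113610243 and had an average of 4.31 log2 CPM (19.8 CPM), above 37.0% of all genes.

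Further genes were described from lists of function. Of 12 other inward rectifier channel genes, 11 had a row, with a median of 4.73 log2 CPM and a range from 2.32 to 6.54. Those with the highest averages were *Kcnj10* (6.54) and *Kcnj16* (6.36), which encode Kir4.1 and Kir5.1, and *Kcnj9* (5.42), which encodes a G protein-gated subunit, all in log2 CPM. The average of *Kcnj11* was above that of 5 of these 11 genes, and that of *Kcnj8* was above 0 of them.

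Of 10 genes of glucose entry and phosphorylation, 4 had a row, with a median of 5.39 log2 CPM. Those with the highest averages were *Slc2a1* (GLUT1, the glucose transporter of the blood-brain barrier) at 6.81, *G6pc3* (a glucose-6-phosphatase) at 5.57 and *Slc2a8* (GLUT8) at 5.20 log2 CPM. All 17 genes of glycolysis after hexokinase had a row. Their median was 8.88 log2 CPM and their range 2.44 to 10.16, with the highest averages in *Aldoa* (10.16), *Gapdh* (10.14) and *Aldoc* (9.99). *Eno2*, the neuronal enolase (2.44), and *Tpi1* (3.09 log2 CPM) were listed lowest and were named after their values were seen. Whether these low averages reflect the level of the transcripts or the assignment of reads to these genes was not tested.

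The AMP-activated kinase, a sensor of AMP and ADP, its activator *Stk11* and the uncoupling protein gene *Ucp2* formed a list of 8 genes with 8 rows. The median of this list was 5.31 log2 CPM, with the highest averages in the regulatory subunits *Prkag1* (8.06) and *Prkag2* (6.28) and the catalytic subunit *Prkaa1* (6.10). Of 10 genes for anchoring, traffic and other partners of the channel, 9 had a row, with a median of 6.85 log2 CPM. *Ank2*, which encodes ankyrin-B, was highest at 9.94, followed by *Ywhae* (a 14-3-3 protein) at 9.88 and *Ank3* (ankyrin-G) at 8.60.

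**Figure D2:**
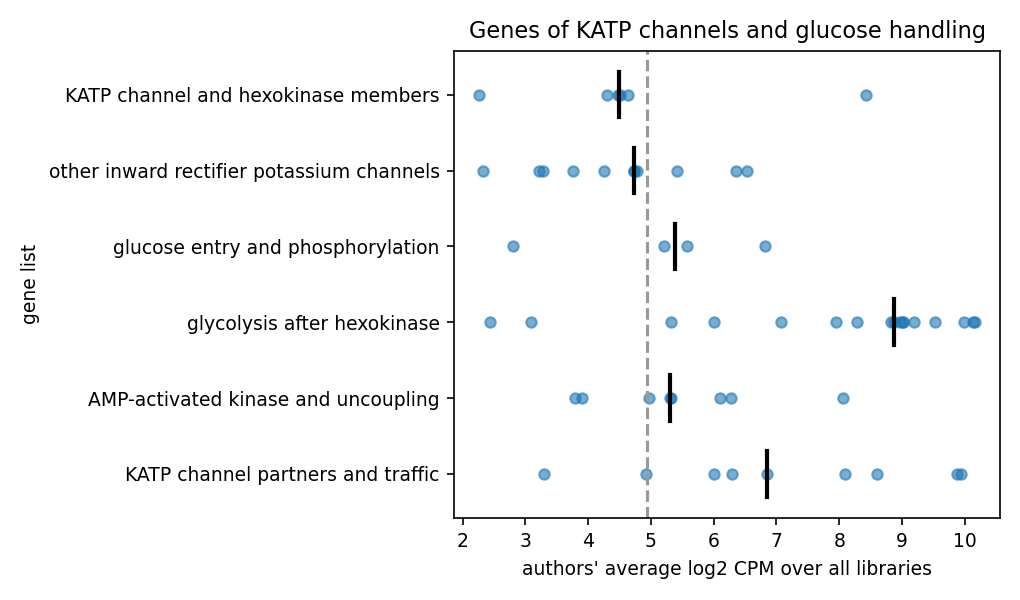
Authors' average log2 CPM of each gene (points) in the 6 lists of function, with the median of each list (black bar) and of all 12828 genes (dashed line, 4.94). The glycolysis list has a median of 8.88, whereas the KATP and hexokinase genes have a median of 4.50 and the other inward rectifiers one of 4.73.

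Lists of region markers were set beside the label of the tissue. Of 10 markers of ARC neurons, 8 had a row, with a median of 4.42 log2 CPM, and the other 2 were not analysed here. *Pdyn* (6.61), *Cartpt* (6.02) and *Pomc* (4.67) were highest. Whether these genes mark the ARC alone was not tested. *Agrp* (1.42), *Ghrh* (1.02) and *Kiss1* (0.08 log2 CPM), named after their values were seen, were lowest, with 4.11%, 2.92% and 1.06% of all genes below them. Genes listed as markers of regions outside the hypothalamus were likewise taken from rows that hold an average. Of 8 striatal markers 8 had a row (median 5.19 log2 CPM), with *Ppp1r1b* at 7.07 and *Pde10a* at 5.96. The lowest, named after its value was seen, was *Gpr6* (2.63). Of 8 markers of cortical and hippocampal excitatory neurons, 6 had a row (median 4.05 log2 CPM), led by *Nrgn* (7.48), *Slc17a7* (7.17) and *Cck* (4.76). The others with a row, named after their values were seen, were *Tbr1* (3.34), *Neurod6* (2.40) and *Neurod2* (2.13). All 6 thalamic markers had a row (median 3.99 log2 CPM), led by *Slc17a6* (8.09), which hypothalamic neurons also express, *Tcf7l2* (5.28) and *Prkcd* (4.79). The remaining thalamic markers, likewise named after their values were seen, were *Lef1* (3.19), *Rora* (2.34) and *Gbx2* (0.49). Only 1.71% of all genes were below *Gbx2*. From 1 average per gene it was not tested which regions the tissue held. The part of any region in the averages of the KATP and hexokinase genes was not tested either.

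For *Kcnj8* and *Abcc9*, known from mural cells, the markers of the vessel wall were listed alongside. All 8 markers of mural cells had a row, between 4.05 (*Acta2*) and 5.35 log2 CPM (*Rgs5*), with a median of 4.75. *Myh11* and *Cspg4* followed *Rgs5* at 5.30 and 5.09 log2 CPM. Of 6 endothelial markers 5 had a row (median 5.77 log2 CPM), with *Slco1c1* at 6.46, *Flt1* at 6.28 and *Cldn5* at 5.77. From 1 average per gene it was not tested which cells the reads of *Kcnj8* and *Abcc9* came from.

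Reads of astrocyte and oligodendrocyte markers were plentiful. The 5 astrocyte markers had a median of 9.62 log2 CPM, with *Aqp4* at 10.22, *Slc1a3* at 9.73 and *Gfap* at 9.62. The 6 oligodendrocyte markers had a median of 9.54 log2 CPM, with *Mbp* at 12.59 and *Mobp* at 9.90. The 5 microglial markers had a median of 4.18 log2 CPM, below the median of 4.94 over all genes. Among them, *Csf1r* was at 6.82, *Cx3cr1* at 4.46 and *P2ry12* at 4.18. Of 5 markers of tanycytes and ependyma 3 had a row, namely *Vim* (7.32), *Crym* (5.53) and *Rax* (0.08). For *Rax*, 1.04% of all genes were below it. *Hk1* at 8.42 log2 CPM is used by neurons and glia alike, and its source among these cells was not tested either.

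**Figure D3:**
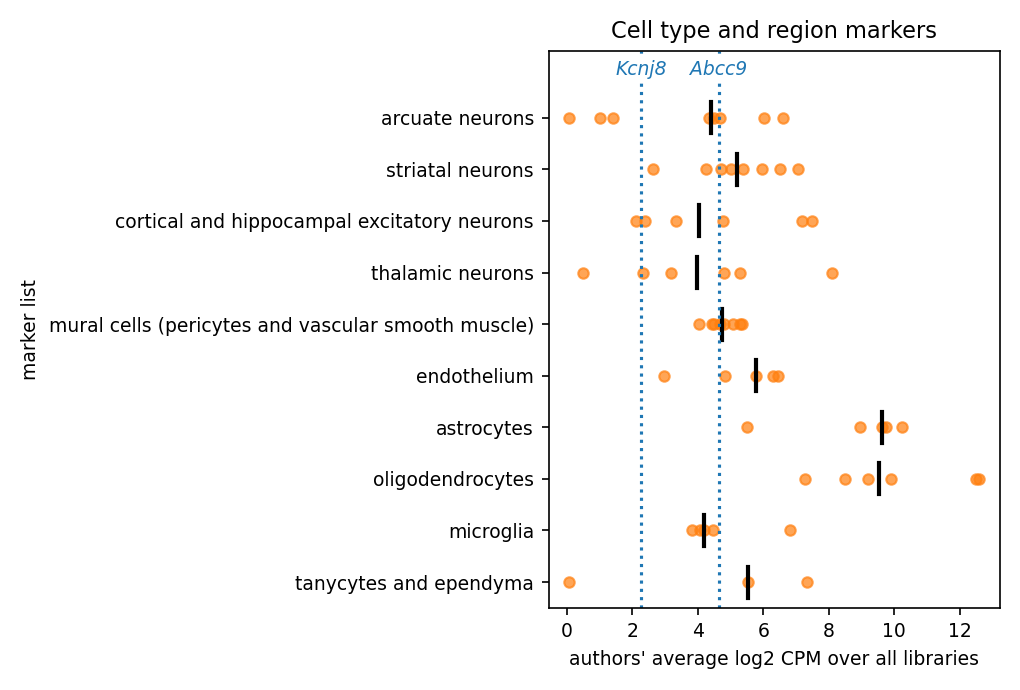
Authors' average log2 CPM of each marker gene (points) in the 10 lists of region and cell type markers, with the median of each list (black bar); dotted lines mark *Kcnj8* (2.26) and *Abcc9* (4.64). Mural cell markers lie between 4.05 and 5.35, all above *Kcnj8*; several other lists also have medians near *Abcc9*, and these levels are not corrected for transcript length. Oligodendrocyte and astrocyte markers have medians of 9.54 and 9.62.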

How the data were processed

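RNA-seq libraries of the ARC of 10 dams were processed by the authors with Trim Galore 0.5.0 (trimming), STAR 2.6.0c (alignment to Rnor_6.0) and HTSeq 0.6.1p2 (gene counts with Ensembl models), per the labels and the methods. The authors deposited 1 table of 12828 genes. Its average log2 CPM, deposited as a single value per gene over all libraries, was the only measurement used. The log base was settled from the values, since 2 to the power of this column summed to 1002152 over all genes. The authors labelled these values as filtered, so each percent of genes below is a place among the genes that were kept. The methods give a minimal filter of 10 reads per gene for the DESeq2 comparison of the authors. Whether that was the filter used here, and the prior count of the average, are not given in the sources used here.

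Another 10 columns of values per library carry names that match no sample label alone and were used in no step. A further 4 columns hold the authors' own comparison of the diets (fold change, F statistic, p-value and FDR) and were not used. Their label names only diets A and B. The methods describe DESeq2 and no F statistic, so how these columns were computed is not given in the sources used here. With no values matched to dams, the tests of diet planned for counts or FPKM had no input. Groups came from the sample titles.

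CPM was computed as 2 to the power of the log2 value, and the percent of genes below each gene was taken over all rows. The ranking step was tested on simulated data. The members and the lists were chosen with earlier results of these data known. The 3 genes with the highest average of each list were named, apart from some that are not reported here, and others are marked. Medians are over listed genes with a row. Coordinates are those of the deposited table. Python 3.11.15 with numpy 2.4.6, pandas 2.3.3 and matplotlib 3.10.9 was used.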

Additional observations from a re-analysis of the deposited data

How the results depend on the processing

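No paired analysis was possible because no column of the table could be matched to single dams, so that replicate numbers had no values. For the same reason another normalization, filter, pseudocount or weighting, other scopes of the adjustment and fits without 1 dam were not run. Chosen after seeing the data, other sets of genes were used to place the 6 genes. The percent of genes below *Kcnj11* was 40.9 among all genes, 39.3 among protein-coding genes, 39.2 among genes of at least 1 log2 CPM and 14.1 among those of at least 4. For *Hk1* it lay between 95.8 and 97.1. *Kcnj8*, at 2.26 log2 CPM, has no place among genes of at least 4. The 2 settings with a minimum leave out genes of low level by construction. Among protein-coding genes the percent below *Kcnj11* fell because the rows left out lay more often below it. Why those rows had lower averages was not tested. Without depth per library, no interval for counting error is given.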
